A study of Homo sapiens with 12 samples.

Results

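The BCL2 family decides whether a cell keeps or loses the integrity of its outer mitochondrial membrane. Here it is described through 10 genes, namely the anti-apoptotic BCL2, BCL2L1 and MCL1, the pore-forming effectors BAX and BAK1, and the BH3-only genes BID, BIK, BCL2L11, PMAIP1 and BBC3. A probe set was taken as a member where its array annotation gave the current or an older symbol of one of these genes and of no other. This rule found 30 of the 54613 probe sets tested, and they measured 9 of the 10 genes. The only probe set of BBC3 also carries the microRNA genes MIR3190 and MIR3191, so its values are given as those of that probe set and stay out of the member counts.

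Anti-apoptotic members hold BAX and BAK1 in inactive complexes until induced or activated BH3-only proteins fill their binding groove, and some BH3-only proteins also engage BAX and BAK1 directly. Freed BAX and BAK1 form pores, cytochrome c leaves the mitochondria, and the apoptosome activates the caspases. Which anti-apoptotic member a tumour cell depends on differs between tumours, and the balance is set in part by transcription and in part by the fast turnover of proteins such as MCL1.

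All arrays measured HD-MB03, a human cell line of group 3 medulloblastoma with an amplified MYC gene. Cells were exposed to entinostat, an inhibitor of the class I histone deacetylases that the sample titles call MS275, at a concentration of 1 µM for 24 h and for 48 h. Each of these groups had a solvent group of the same length, in which the cells received DMSO alone. With 3 biological replicates in each of 4 groups, 12 RNA samples were hybridised to an Affymetrix U133 Plus 2.0 array each. The arrays cover 1 cell line, so the spread given below is that between cultures of this line. In RNA from a whole culture, fewer cells of a type and less RNA per cell cannot be told apart.

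The deposited values are normalised intensities on a linear scale, and every log2 fold change below is entinostat minus DMSO on the log2 scale. The median of an array was 80.6 at the lowest and 81.8 at the highest, and no value of the table was below 36.7. Intensities of different probe sets are not comparable with each other, so no gene is ranked above another by its level. Of 8 group 3 marker genes, MYC and OTX2 had group means of at least 5618, whereas NPR3 and EOMES stayed at or below 78.3, near the array median. IMPG2, a marker of the photoreceptor programme of these tumours, was lower under entinostat at both times, with log2 fold changes of −2.02 and −1.52, and so was GABRA5, with −1.78 and −2.12. OTX2 was lower at 24 h, with −0.22 (adjusted p = 0.0312), CRX was lower at 48 h, with −0.44 (adjusted p = 0.0324), and MYC was the one marker higher at 48 h. In all, 3 of the 8 were lower at 24 h (37.5%). Of all genes by their brightest probe sets, 33.2% passed at that time in either direction, 15% of them as lower. At 48 h 3 markers were lower and 1 higher (50%, against 34% of all genes in either direction, 16.6% lower). NRL, NPR3 and EOMES passed at neither time, and the part of these markers in the results below was not tested. Among 16 fibroblast, glial, immune and endothelial markers, mean log2 values lay between 5.71 and 7.04, and by their brightest probe sets only the glial gene MBP passed the test, with −0.44 at 48 h (adjusted p = 0.00045).

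Across the family, 10 of 30 probe sets passed an adjusted p of 0.05 in limma at 24 h, 6 of them higher and 4 lower under entinostat. Among all probe sets 25.2% passed at that time, 12.8% higher and 12.4% lower. At 48 h 12 of 30 passed, 8 higher and 4 lower, against 26.1% of all probe sets (12.9% higher, 13.2% lower). Bright probe sets passed more often than dim ones: of those with a mean log2 of 7 or more, 50.1% passed at 24 h and 52.1% at 48 h. In the family 18 probe sets were that bright, of which 8 (44.4%) passed at 24 h and 9 (50%) at 48 h. The share of family probe sets that passed was therefore near that of similarly bright probe sets, and the description below turns on which members moved and in which direction.

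Taking for each gene its brightest probe set, 5 of 9 genes passed at 24 h, with MCL1, BAK1, BIK and PMAIP1 higher and BID lower. Among all 19775 genes taken the same way, 33.2% passed at 24 h (18.2% higher, 15% lower) and 34% at 48 h (17.3% higher, 16.6% lower). At 48 h 5 of 9 genes passed again, with BAX, BAK1, BIK and PMAIP1 higher and BID lower. The median log2 fold change of the 9 genes was 0.26 at 24 h and 0.31 at 48 h, against −0.02 over all genes at each time. Over all 30 probe sets the median was −0.04 at 24 h, against −0.03 over all probe sets, and 0.14 at 48 h, against −0.02.

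**Figure D1:**
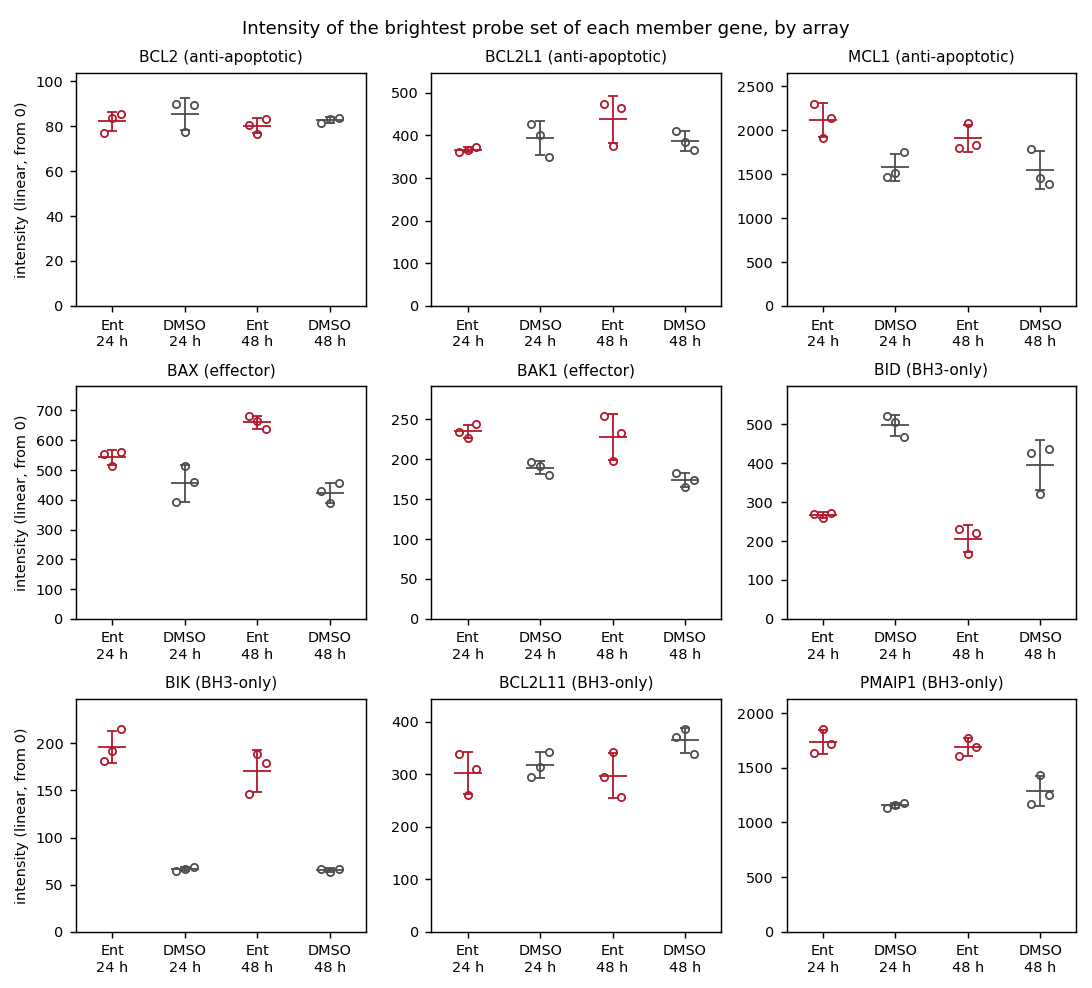
Intensity on a linear axis from 0 of the brightest probe set of each of the 9 measured genes. Circles are single arrays, horizontal lines the means and bars the SD (n = 3), with entinostat in red and DMSO in grey at each time. The entinostat and DMSO arrays are separate at both times for BIK, BID, PMAIP1, MCL1, BAX and BAK1, and they overlap for BCL2, BCL2L1 and BCL2L11. The separation is only just present for BAX at 24 h (514.2 against 514.1) and for MCL1 at 48 h (1798 against 1788).

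The start regions of BAX, BAK1 and PMAIP1, which were higher at 48 h, and of BID, which was lower, are shown as the sequence context of members that moved. RefSeq windows of 250 bases before to 50 bases after a transcription start were at hand for 8 of the 10 genes, 13 windows in all, on GRCh38.p14. Capitals mark the letters CACGTG, the core of the E-box that MYC and related factors bind, and GGGCGG, the GC box of SP1-type factors, written CCGCCC where it lies on the other strand. CACGTG reads the same on both strands, and no CACGTG shared a base with a GGGCGG in the 4 windows printed.
BAX, chr19:48954625-48954924, plus strand: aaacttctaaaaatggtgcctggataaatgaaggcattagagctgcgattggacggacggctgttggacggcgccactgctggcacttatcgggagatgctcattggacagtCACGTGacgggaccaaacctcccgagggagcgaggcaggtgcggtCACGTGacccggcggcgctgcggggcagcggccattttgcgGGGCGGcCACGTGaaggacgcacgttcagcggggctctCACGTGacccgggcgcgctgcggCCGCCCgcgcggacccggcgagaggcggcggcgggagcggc
BAK1, chr6:33580227-33580526, minus strand: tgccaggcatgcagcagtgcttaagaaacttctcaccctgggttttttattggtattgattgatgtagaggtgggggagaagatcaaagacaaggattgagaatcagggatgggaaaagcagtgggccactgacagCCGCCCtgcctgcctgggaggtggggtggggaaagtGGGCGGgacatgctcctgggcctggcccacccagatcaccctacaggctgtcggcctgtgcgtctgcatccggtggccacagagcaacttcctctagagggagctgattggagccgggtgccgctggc
PMAIP1, chr18:59899746-59900045, plus strand: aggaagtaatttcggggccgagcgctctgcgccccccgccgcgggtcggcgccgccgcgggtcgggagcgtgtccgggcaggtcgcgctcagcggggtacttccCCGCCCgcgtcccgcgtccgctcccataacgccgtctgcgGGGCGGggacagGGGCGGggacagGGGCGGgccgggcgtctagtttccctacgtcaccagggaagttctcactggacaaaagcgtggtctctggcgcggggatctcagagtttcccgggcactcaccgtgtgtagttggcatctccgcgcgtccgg
BID, chr22:17774420-17774719, minus strand, the first of 5 windows: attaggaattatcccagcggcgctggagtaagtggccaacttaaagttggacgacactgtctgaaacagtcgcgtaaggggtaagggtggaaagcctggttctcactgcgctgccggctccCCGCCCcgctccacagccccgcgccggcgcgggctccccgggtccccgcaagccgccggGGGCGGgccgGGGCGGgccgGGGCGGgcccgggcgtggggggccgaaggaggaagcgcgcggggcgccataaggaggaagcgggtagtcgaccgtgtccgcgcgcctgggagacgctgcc
The BAX window holds CACGTG 4 times, starting 138, 93, 45 and 14 bases before the transcription start, and GGGCGG in either orientation 2 times. Of 35116 windows of the same length, 7.26% hold CACGTG at least once and 5 (0.0142%) hold it 4 times or more. PMAIP1 and the BID window shown each hold GGGCGG 4 times and no CACGTG, and 9.06% of all windows hold GGGCGG 4 times or more. BAK1 holds GGGCGG 2 times and no CACGTG. Over the 13 windows of the family, 4 hold CACGTG, 2 of them overlapping windows of BID. GGGCGG is in 9, 4 of them windows of BID that overlap in pairs, against 45% of all windows. Overlapping windows repeat the same sites, so the CACGTG and GGGCGG counts are not counts of independent windows. CCAAT, also counted as ATTGG, is in 4 of the 13 and in 34.6% of all windows. These matches describe letters in a window, and binding was not measured.

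Among the anti-apoptotic members, MCL1 was higher under entinostat at 24 h, BCL2L1 differed between its probe sets, and BCL2 lay near the array median, its brightest probe set not past the threshold. MCL1 encodes a short-lived guardian of BAK1 that also binds the BH3-only proteins NOXA (PMAIP1) and BIM (BCL2L11). Its brightest probe set read 2302, 1911 and 2138 on the entinostat arrays at 24 h, against 1462, 1513 and 1753 on the DMSO arrays. At 48 h it read 1798, 2084 and 1837 under entinostat, against 1788, 1456 and 1392 in DMSO. Every entinostat array lay above every DMSO array at both times, although at 48 h the gap between the nearest arrays was small beside the spread within the groups. The log2 fold change was 0.43 at 24 h (standard error 0.11, adjusted p = 0.0102), a call kept in all 12 refits that each left out 1 array. At 48 h it was 0.31 (standard error 0.11, adjusted p = 0.052), and 3 of the 12 refits brought it past the threshold, those without DMSO replicate 3 or entinostat replicate 2 at 24 h or without DMSO replicate 1 at 48 h. Quantile normalisation, the removal of dim probe sets and a trended robust prior did so too (adjusted p = 0.045, 0.0317 and 0.0432), and over all alternatives, other probe sets included, its adjusted p ranged from 0.00443 to 0.597.

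All 6 probe sets of MCL1 had positive log2 fold changes at both times, but few of them passed. Probe set 200798_x_at, whose ending marks a possible cross-hybridisation, averaged 1072 ± 176 under entinostat and 855 ± 68.6 in DMSO at 24 h (SD, n = 3 each), and 1065 ± 42.6 under entinostat and 782 ± 34.8 in DMSO at 48 h. It passed at 24 h, with 0.32 (adjusted p = 0.0323), and at 48 h, with 0.44 (adjusted p = 0.00443). The call at 24 h was lost in 3 of 12 refits, those without DMSO replicate 2 or 3 or without entinostat replicate 1 at 24 h. The other 4 ranged between 0.06 and 0.28 at 24 h and between 0.04 and 0.20 at 48 h, none past the threshold. The brightest MCL1 probe set that ends in neither _s_at nor _x_at had 0.06 (adjusted p = 0.587) at 24 h and 0.18 (adjusted p = 0.0876) at 48 h, so the size of the MCL1 change depended on the probe set read.

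BCL2L1, which encodes BCL-XL, a broad inhibitor of BAX, BAK1 and BH3-only proteins, had 4 probe sets. The brightest read 361, 367 and 373 under entinostat and 428, 402 and 350.5 in DMSO at 24 h, and the groups overlapped. At 48 h it read 475, 375 and 464 under entinostat, against 411, 385 and 365 in DMSO, again with overlap. Its log2 fold change was −0.10 at 24 h (95% interval −0.30 to 0.11, adjusted p = 0.541) and 0.17 at 48 h (−0.03 to 0.38, adjusted p = 0.233). Without entinostat replicate 2 at 48 h, the array that read 375, the value at 48 h was 0.28 (adjusted p = 0.0284, with a range of 0.000599 to 1 over all alternatives, other probe sets included).

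Of the 3 dimmer BCL2L1 probe sets, 231228_at and 206665_s_at separated the arrays at both times. Probe set 231228_at read 139.7, 125 and 112 under entinostat at 48 h, against 81.1, 96.5 and 81.2 in DMSO, and passed, with 0.54 on the log2 scale (standard error 0.09, adjusted p = 0.000599), also in all 12 refits. At 24 h it had 0.18 (adjusted p = 0.175). Probe set 206665_s_at went the opposite way at the earlier time, with 89.7, 90.3 and 97.2 under entinostat and 109, 109.9 and 101 in DMSO at 24 h, a log2 fold change of −0.21 (adjusted p = 0.0221) whose call was lost without replicate 1 or 2 of either treatment at 24 h, 4 of 12 refits. At 48 h the same probe set read 115, 109 and 113 under entinostat and 103, 104 and 92.8 in DMSO, with 0.17 (adjusted p = 0.0583). Its arrays were thus separated at both times in opposite directions, and the interaction of treatment and time was 0.38 (standard error 0.09, adjusted p = 0.0566), short of the threshold. The remaining probe set, 215037_s_at, had −0.16 at 24 h and 0.15 at 48 h, overlapped at 48 h and passed at neither time.

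BCL2, the founding member, guards mitochondria and the endoplasmic reticulum in many cell types. The group means of its brightest probe set were 82.1 ± 4.41 under entinostat and 85.5 ± 7.08 in DMSO at 24 h, and 80.1 ± 3.27 under entinostat and 82.7 ± 1.25 in DMSO at 48 h (SD, n = 3 each). The mean of this probe set over all arrays, a log2 of 6.37, stood at the 50.8th percentile of all probe sets. Its log2 fold change was −0.06 at 24 h (95% interval −0.20 to 0.09) and −0.05 at 48 h (−0.19 to 0.10), and these values include the background level. Of the other 3 BCL2 probe sets 1 passed: the dimmest, 203685_at, averaged 55.1 ± 2.22 under entinostat and 68.1 ± 3.84 in DMSO at 48 h, with −0.30 (adjusted p = 0.014). That call was lost without DMSO replicate 2 or entinostat replicate 3 at 48 h.

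Both effectors were higher under entinostat at 48 h, and BAK1 also at 24 h. BAX, which moves from the cytosol to the mitochondrial membrane when activated, read 552, 514 and 561 under entinostat at 24 h, against 392, 514 and 458 in DMSO. At 48 h its entinostat arrays read 680.0, 666 and 637, against 428, 388 and 455 on the DMSO arrays. The groups nearly met at 24 h, where the lowest entinostat array (514.2) was level with the highest DMSO array (514.1), and were wide apart at 48 h. The log2 fold change was 0.26 at 24 h (standard error 0.09, adjusted p = 0.0522) and 0.64 at 48 h (standard error 0.09, adjusted p = 0.000151). Without DMSO replicate 2 at 24 h, the array that read 514, the value at 24 h was 0.36 (adjusted p = 0.00966), and in the other 11 refits its adjusted p passed the threshold only without DMSO replicate 2 at 48 h (adjusted p = 0.0472). Over all 22 alternatives it ranged from 0.00966 to 0.6, and 3 passed, not all of them by leaving out an array.

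The other BAX probe set, 208478_s_at, overlapped between the treatments at 24 h and was apart at 48 h. It read 341, 341 and 349 under entinostat and 272, 314 and 347 in DMSO at 24 h, and 464, 467 and 421 under entinostat and 284, 306 and 293 in DMSO at 48 h. This gave 0.15 (adjusted p = 0.205) on the log2 scale at 24 h and 0.61 (adjusted p = 7.53e-05) at 48 h. The difference between these changes, the interaction, was 0.46 (standard error 0.11, adjusted p = 0.075), and for the brighter BAX probe set it was 0.38 (adjusted p = 0.204). Neither passed, so a larger BAX response at 48 h than at 24 h was not called, although the entinostat arrays at 48 h lay above those at 24 h for 208478_s_at, by a log2 difference of 0.39 (adjusted p = 0.0113), while its DMSO arrays differed by −0.07.

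BAK1, the effector that resides in the mitochondrial membrane, had 1 probe set. It read 234, 227 and 244 under entinostat and 197, 192 and 180.2 in DMSO at 24 h. The reading at 48 h was 254, 198 and 233 under entinostat, against 183, 165 and 174 in DMSO. No entinostat array overlapped a DMSO array at either time, and entinostat replicate 2 at 48 h lay closest to DMSO. The log2 fold change was 0.31 at 24 h (standard error 0.08, adjusted p = 0.0142) and 0.38 at 48 h (standard error 0.08, adjusted p = 0.00353). The call at 48 h was kept in all 12 refits, and that at 24 h was lost without DMSO replicate 3 (adjusted p = 0.0589) or entinostat replicate 3 at 24 h (adjusted p = 0.0525), with a range of 0.00268 to 0.163 over all alternatives.

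The BH3-only members split into a gene that fell, BID, a pair that rose, BIK and PMAIP1, and one that did not pass, BCL2L11. BID is cut by caspase-8 and carries the death receptor signal to the mitochondria. Its brightest probe set read 270.4, 259 and 271 under entinostat at 24 h, against 521, 505 and 468 in DMSO, and 232, 166 and 222 under entinostat at 48 h, against 427, 322 and 438 in DMSO. The groups were far apart at both times, and the entinostat level was 0.536 times the DMSO level at 24 h and 0.522 times at 48 h. These are log2 fold changes of −0.90 (standard error 0.13, adjusted p = 0.000211) and −0.94 (standard error 0.13, adjusted p = 0.000135), with an interaction of −0.04 (adjusted p = 0.964).

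Each of the 3 BID probe sets was lower at both times, with no overlap of arrays and a call in all 12 refits. Probe set 204493_at read 167, 137 and 161 under entinostat and 349, 330.5 and 315 in DMSO at 24 h, and 141, 139 and 149 under entinostat and 301, 324 and 316 in DMSO at 48 h. It had the widest separation of the 3, with −1.10 (adjusted p = 3.92e-07) at 24 h and −1.14 (adjusted p = 2.57e-07) at 48 h. Probe set 227143_s_at averaged 163 ± 16.5 under entinostat and 323 ± 33.6 in DMSO at 24 h, and 157 ± 7.83 under entinostat and 306 ± 17.7 in DMSO at 48 h (SD, n = 3 each). By their brightest probe sets, BID was the only one of the 9 genes that passed as lower. BCL2 and BCL2L11 also had negative log2 fold changes at both times, without passing.

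BIK, a BH3-only protein of the endoplasmic reticulum that neutralises BCL2 and BCL-XL, showed the widest separation in the family. Its single probe set read 182, 192 and 215 under entinostat and 65.0, 66.7 and 69.1 in DMSO at 24 h. At 48 h it read 146, 188 and 179 under entinostat, against 66.8, 63.2 and 67.0 in DMSO. The DMSO arrays lay below the array median at both times and within a narrow range, and the lowest entinostat array read 146. The entinostat level was 2.93 times the DMSO level at 24 h and 2.59 times at 48 h, log2 fold changes of 1.55 (standard error 0.09, adjusted p = 1.29e-07) and 1.37 (standard error 0.09, adjusted p = 2.85e-07). With 30 subtracted from every value, an alternative that lowers the background level, they were 2.17 and 1.97, so the fold depends on how much background a dim value holds. The interaction was −0.18 (adjusted p = 0.642).

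PMAIP1 encodes NOXA, a BH3-only protein that binds MCL1 and promotes its degradation. Its brightest probe set read 1638, 1853 and 1716 under entinostat and 1133, 1165 and 1177 in DMSO at 24 h. At 48 h the entinostat arrays read 1611, 1778 and 1689, against 1172, 1439 and 1253 in DMSO. No array of one treatment reached the range of the other, at either time. The log2 fold change was 0.58 at 24 h (standard error 0.08, adjusted p = 9.41e-05) and 0.40 at 48 h (standard error 0.08, adjusted p = 0.00159). The other probe set, 204286_s_at, gave 0.55 (adjusted p = 0.000807) and 0.40 (adjusted p = 0.00649), and the 4 calls were kept in all 12 refits. The interaction of the brightest probe set was −0.18 (adjusted p = 0.539), so a smaller PMAIP1 change at 48 h was not called.

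BCL2L11 encodes BIM, which binds every anti-apoptotic member. Its brightest probe set averaged 302 ± 40.3 under entinostat and 317 ± 24.2 in DMSO at 24 h, and 297 ± 43.2 under entinostat and 365 ± 23.7 in DMSO at 48 h (SD, n = 3 each), and the groups overlapped at both times. The log2 fold change was −0.07 at 24 h (95% interval −0.32 to 0.18) and −0.30 at 48 h (−0.55 to −0.05, adjusted p = 0.0746). At 48 h entinostat replicate 2, at 342, lay above the lowest DMSO array, at 339, and without it the value was −0.41 (adjusted p = 0.0215, with a range of 0.0215 to 0.857 over all alternatives). It also passed without entinostat replicate 2 at 24 h (adjusted p = 0.0485). Of its 23 alternatives 3 passed, not all of them by leaving out an array. None of the 7 BCL2L11 probe sets passed at either time, and 0 at 24 h and 3 at 48 h had an unadjusted p under 0.05. With the replicate number as a block, 2 of them passed as lower at 48 h, 1558143_a_at (adjusted p = 0.0375) and 222343_at (adjusted p = 0.0213). At 48 h they ranged between −0.39 for 1558143_a_at (adjusted p = 0.0737) and 0.14 for 1553088_a_at (adjusted p = 0.292).

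The probe set that carries BBC3, the gene of the p53-induced BH3-only protein PUMA, together with MIR3190 and MIR3191 read 134, 135 and 145 under entinostat and 119, 125 and 135 in DMSO at 24 h. At 48 h it read 129, 148 and 147 under entinostat and 127, 140.2 and 134 in DMSO. The arrays overlapped at both times. Its log2 fold change was 0.13 at 24 h (95% interval −0.03 to 0.29, adjusted p = 0.234) and 0.07 at 48 h (−0.08 to 0.23, adjusted p = 0.539).

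**Figure D2:**
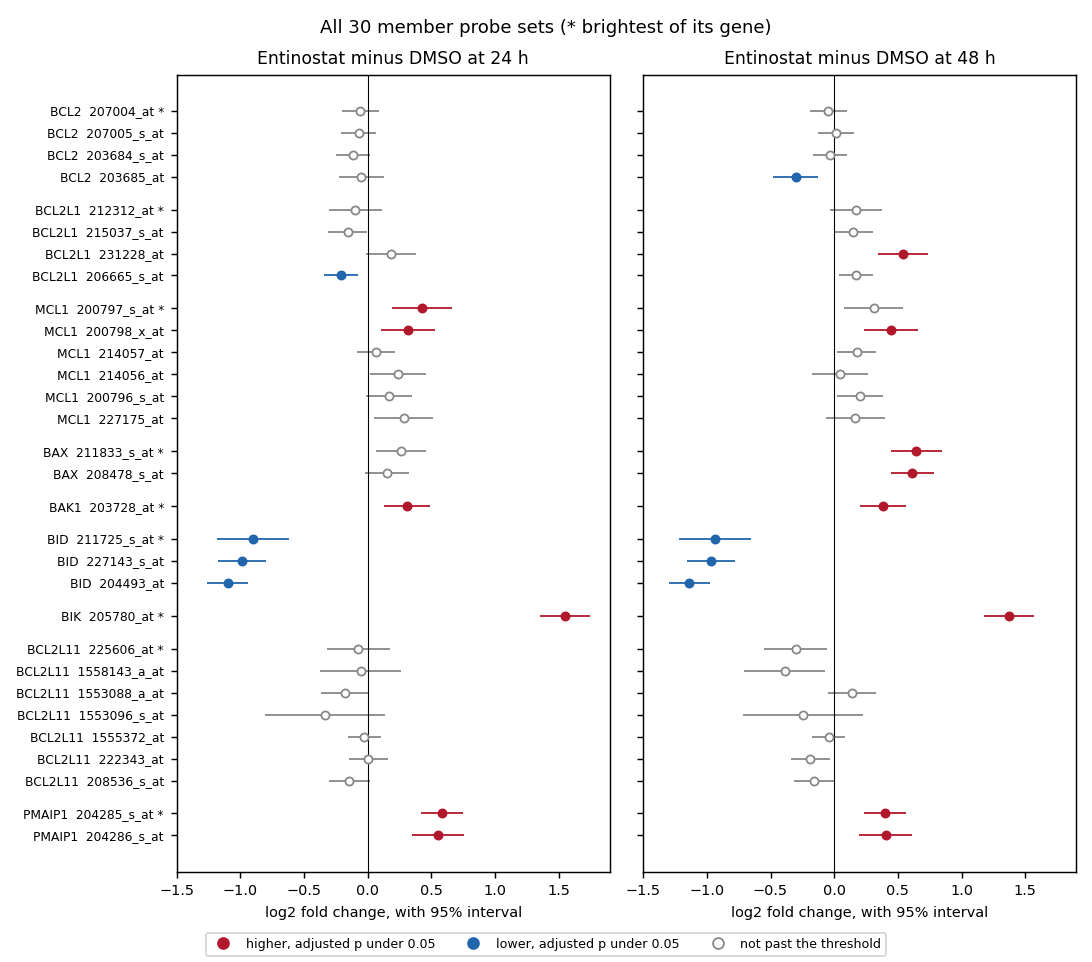
Log2 fold change of entinostat minus DMSO, with its 95% interval, for each of the 30 family probe sets at 24 h (left) and 48 h (right). Red points are higher and blue points lower at an adjusted p under 0.05 in limma, and open points did not pass. The probe sets of BID, PMAIP1 and BAX lie close together within each gene, whereas those of BCL2L1 lie on both sides of 0 at 24 h and those of MCL1 reach from 0.04 to 0.44 at 48 h.

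Between 24 h and 48 h few members changed within a treatment. In DMSO, 48 h against 24 h, 0 of 30 probe sets passed in limma, against 0.359% of all probe sets. An unadjusted p under 0.05 was found for 4 of the 30 (13.3%), near the 11% of all probe sets. Under entinostat, 48 h against 24 h, 2 of 30 passed, both higher at 48 h, against 7.19% of all probe sets (3.31% higher). They were BAX 208478_s_at and BCL2L1 206665_s_at, with log2 differences of 0.39 (adjusted p = 0.0113) and 0.28 (adjusted p = 0.015). The BAX call was kept in all 12 refits, and the BCL2L1 call was lost in 3, those without entinostat replicate 1 or 2 at 24 h or replicate 1 at 48 h. No family probe set passed in the interaction of treatment and time, where 1.21% of all probe sets did. An unadjusted p under 0.05 was found for 7 (23.3%), against 12.8% of all probe sets, but 3 of the 7 were of BCL2L1 and 2 of BAX. By brightest probe sets it was 1 of 9 genes (11.1%), against 16.2% of all genes, so the larger share was not seen by gene. These comparisons share their arrays with those of entinostat against DMSO.

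**Figure D3:**
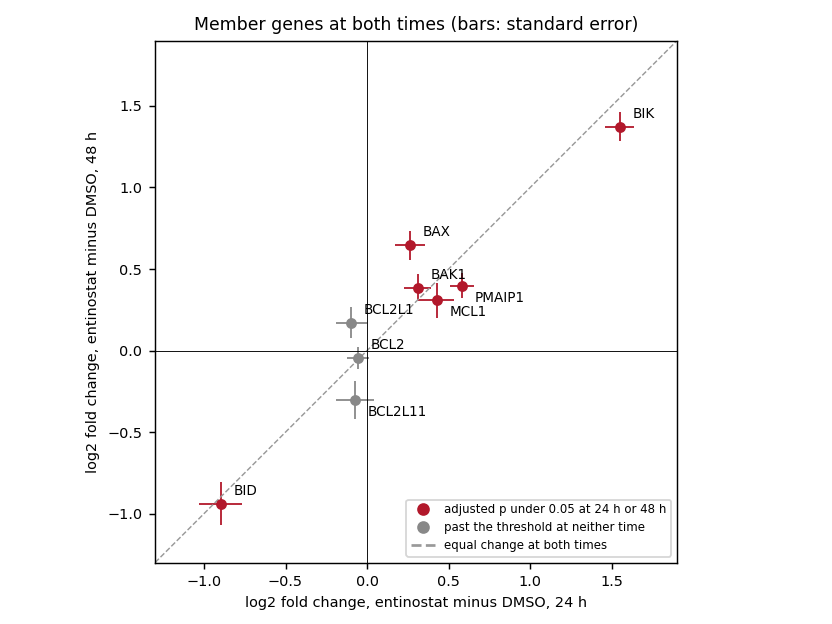
Log2 fold change of entinostat minus DMSO at 24 h (horizontal) and 48 h (vertical) for the brightest probe set of each of 9 genes, with bars of 1 standard error. BIK and BID lie far from 0 close to the dashed line of equal change, BAX lies above it at 0.26 and 0.64, and no departure from the line passed the interaction test.

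BIK and BID varied most over the arrays, and a few genes outside the family had nearly the same profile. Over the 12 arrays the SD of log2 was 0.77 for BIK and 0.54 for BID, against 0.08 for BCL2, 0.14 for BCL2L1, 0.18 for BCL2L11, 0.21 for BAK1, 0.24 for MCL1, 0.27 for PMAIP1 and 0.28 for BAX. Nearest to the centred profile of BIK, by the root mean square difference over 12 arrays, were TGM2, WDR54 and GRAMD1C, at 0.093, 0.093 and 0.109. Their log2 fold changes were 1.59, 1.43 and 1.41 at 24 h and 1.18, 1.38 and 1.24 at 48 h. Nearest to BID were TEAD2, PMF1 and CD99, at 0.149, 0.153 and 0.155, with −0.98, −0.77 and −0.89 at 24 h and −0.98, −1.03 and −1.16 at 48 h. The 12 arrays fall into 4 groups, so this likeness is mostly one of group means.

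The other genes of the family and of the pathway downstream were read by the brightest probe set of each. Of 16 further BCL2 family and BH3 genes, 5 passed at 24 h (4 higher, 1 lower; 31.2%, against 33.2% of all genes) and 8 at 48 h (5 higher, 3 lower; 50%, against 34%), with median log2 fold changes of 0.12 and 0.10. MOAP1, a BAX-binding adaptor, averaged 795 ± 35.6 under entinostat and 440.0 ± 10.8 in DMSO at 24 h, and 798 ± 13.5 under entinostat and 503 ± 11.5 in DMSO at 48 h (SD, n = 3 each). It rose by 0.85 (adjusted p = 1.33e-07) and 0.67 (adjusted p = 8.17e-07). BAD, a BH3-only protein that survival kinases hold inactive, averaged 395 ± 2.62 under entinostat and 251 ± 27.1 in DMSO at 24 h, with 0.66 (adjusted p = 2e-05) and, at 48 h, 0.56 (adjusted p = 7.3e-05), while the lowest of its 3 probe sets had −0.15 and −0.05. BCL2L12 had 0.47 (adjusted p = 0.00568) and 0.40 (adjusted p = 0.0137), the call at 48 h being lost without DMSO replicate 1 or entinostat replicate 3 at 48 h, while BCL2L13 passed at 48 h, with 0.42 (adjusted p = 0.00662), and had −0.06 at 24 h. BNIP3, a mitophagy receptor with a BH3 motif, fell, with −0.35 (adjusted p = 0.0194) and −0.58 (adjusted p = 0.000587), the call at 24 h being lost without replicate 2 or 3 of either treatment at 24 h. BNIP2 had −0.22 at 48 h (adjusted p = 0.0142, lost without DMSO replicate 1 at 48 h) and 0.06 at 24 h, where its other probe set was higher, with 0.24 (adjusted p = 0.0223). BECN1, the autophagy protein with a BH3 motif, passed at 48 h, with 0.23 (adjusted p = 0.0369, lost without any one of its 6 arrays at 48 h). HRK passed at neither time by its brightest probe set, but 1 of its 5 probe sets was higher at 24 h and 2 at 48 h.

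BNIP3L, the sister receptor of BNIP3, was the only gene of these lists that passed the interaction test of treatment and time. Among all genes 1.92% passed it, so a single call in these lists is near that share. BNIP3L read 475, 479 and 501 under entinostat and 322, 391 and 372 in DMSO at 24 h, and 301, 368 and 350.3 under entinostat and 389, 408 and 473 in DMSO at 48 h. The entinostat arrays thus lay above DMSO at 24 h, with 0.43 (adjusted p = 0.00506), and below it at 48 h, with −0.32 (adjusted p = 0.0267), a call lost without DMSO replicate 3 or entinostat replicate 1 at 48 h. The interaction was −0.74 (standard error 0.14, adjusted p = 0.0269) and passed in 6 of 12 refits. It was lost, with adjusted p up to 0.0672, without DMSO replicate 1 or entinostat replicate 2 or 3 at 24 h, or without DMSO replicate 2 or 3 or entinostat replicate 1 at 48 h.

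Of the 8 listed genes of the apoptosome and of mitochondrial release, 6 were measured. At 24 h 5 of them were higher (83.3%, against 18.2% of all genes higher and 33.2% in either direction). At 48 h 2 were higher (33.3%, against 17.3% higher and 34% in either direction), and none was lower at either time. All 6 had a mean log2 above 7, and of all probe sets that bright 50.1% passed at 24 h and 52.1% at 48 h. The list was chosen with earlier results of these data known, so its shares are descriptive and an excess was not tested. HTRA2, a protease released from mitochondria that degrades inhibitors of apoptosis, had 0.55 (adjusted p = 0.000123) at 24 h and 0.82 (adjusted p = 4.07e-06) at 48 h. APAF1, the scaffold of the apoptosome, averaged 491 ± 21.7 under entinostat and 298 ± 2.46 in DMSO at 24 h, a log2 fold change of 0.72 (adjusted p = 0.00042), and had 0.30 at 48 h (adjusted p = 0.0764). Of its 3 probe sets only 1 passed at 24 h, and the lowest had 0.07. CYCS, which encodes cytochrome c, rose by 0.24 (adjusted p = 0.0086) and 0.28 (adjusted p = 0.00339). At 24 h 2 of its 3 probe sets passed, and the lowest had −0.01. CASP9, the initiator caspase of the apoptosome, had 0.41 (adjusted p = 0.00849) at 24 h and 0.24 (adjusted p = 0.113) at 48 h. Only 1 of its 3 probe sets passed at 24 h, and the lowest had 0.01. DIABLO, which relieves caspases of their inhibitors, passed at 24 h, with 0.36 (adjusted p = 0.0295, lost without any one of its 6 arrays at 24 h). The median of the 6 genes was 0.38 at 24 h and 0.28 at 48 h, against −0.02 over all genes.

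Among the 3 voltage-dependent anion channels of the outer membrane, VDAC1 was lower at 24 h, with −0.29 (adjusted p = 0.00324), and VDAC3 at 48 h, with −0.27 (adjusted p = 0.00394). This is 1 of 3 at each time (33.3%, near the 33.2% and 34% of all genes). Of 5 regulators of MCL1 protein turnover, 1 passed at each time (20%, against 33.2% and 34% of all genes). It was USP9X, the deubiquitinase that stabilises MCL1, which rose by 0.39 (adjusted p = 0.00564) and 0.43 (adjusted p = 0.00255). By their brightest probe sets the other 4 passed at neither time. Of the 5 HUWE1 probe sets, however, 1 was lower at 48 h, where the lowest had −0.46. Of 8 transcription factors known to act on family genes 7 were measured, and FOXO3, an activator of BCL2L11 and BBC3, rose by 0.46 (adjusted p = 0.000142) and 0.35 (adjusted p = 0.00117). ATF4, a stress factor that acts on PMAIP1, had 0.41 (adjusted p = 0.0133) and 0.36 (adjusted p = 0.0256), called in 10 and 8 of 12 refits. The calls were lost without entinostat replicate 2 or 3 at 24 h for the 24 h value, and without replicate 3 of either treatment, DMSO replicate 1 or entinostat replicate 2 at 48 h for the 48 h value. TP73, a relative of p53, had −0.16 (adjusted p = 0.0481, in 3 of 12 refits, those without DMSO replicate 1 at 24 h or replicate 3 of either treatment at 48 h) and −0.24 (adjusted p = 0.00467). MYC, whose gene is amplified in this line, had 0.04 (adjusted p = 0.6) and 0.17 (adjusted p = 0.0163), the call at 48 h being lost without DMSO replicate 1 or entinostat replicate 2 at 48 h. In this list 2 genes were thus higher and 1 lower at 24 h (42.9% of 7, against 33.2% of all genes), and 3 were higher and 1 lower at 48 h (57.1%, against 34%). E2F1 did not pass at 24 h by its brightest probe set, with 0.06, but the other of its 2 probe sets was lower there, with −0.60.

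**Figure D4:**
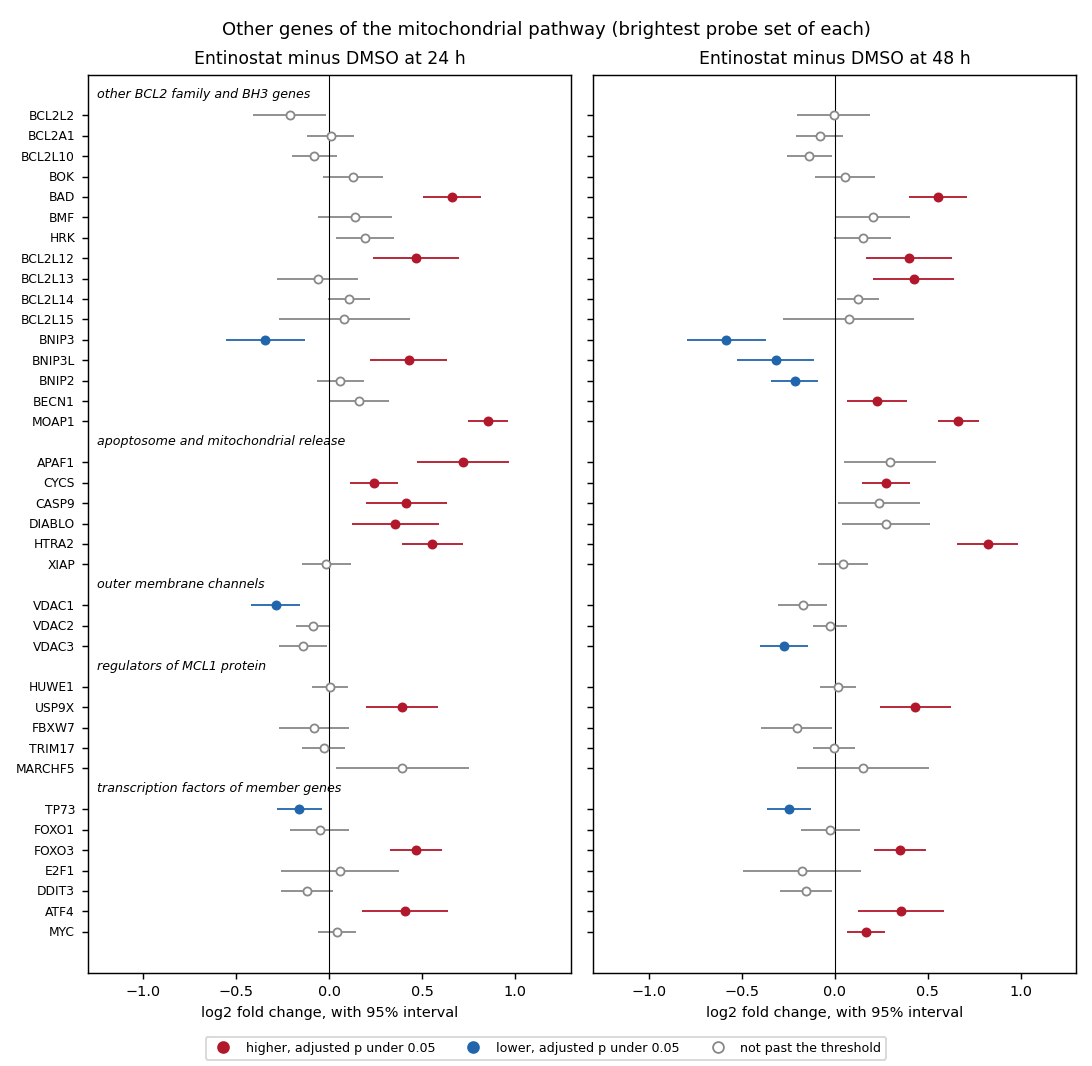
Log2 fold change of entinostat minus DMSO, with its 95% interval, for the listed genes around the family at 24 h (left) and 48 h (right), each by its brightest probe set. Red points are higher and blue points lower at an adjusted p under 0.05 in limma, and open points did not pass. MOAP1, BAD and HTRA2 lie above 0 at both times, BNIP3 lies below 0 at both, and BNIP3L is above 0 at 24 h and below it at 48 h.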

How the data were processed

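The deposited intensity values had, per the labels and the study's methods, been normalised by the authors with GCRMA, whose version is not given in the sources used here. The methods also name a log2 step. The deposited intensities are linear, so log2 was taken here, and with a lowest value of 36.7 a background level remains in them, which makes the log2 changes of dim probe sets smaller. Whether the deposited table is the GCRMA output that the study analysed or another export could not be settled from the sources used here.

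The table held 54675 probe sets, of which 62 were controls and not used. In addition, 2 cells were empty. Symbols were updated through Entrez IDs, and 1801 probe sets with several symbols and 11721 with none named no gene. The log2 values of all 12 arrays entered a single linear model in limma 3.58.1 (R 4.3.3) with 1 coefficient per group, with Benjamini-Hochberg adjustment over all probe sets and a threshold of 0.05. A gene was represented by its probe set of the highest mean. Every member was named, with its other probe sets where their call or sign differed, and from each related list the genes past the threshold, at most 8. Members and lists were chosen with earlier results of these data known. The fit was tested on simulated data. The number of arrays limits the precision. The alternatives were other normalisations, filters, adjustments, priors and probe sets, separate fits per time, a replicate block and leaving out each array. Promoter windows came from RefSeq. Drug response and protein data were not analysed here.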

Additional observations from a re-analysis of the deposited data

Results flagged for a closer look

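BNIP3L, a mitophagy receptor related to the family, differed between the times in its response to entinostat. The interaction of treatment and time was −0.74 on the log2 scale (limma, adjusted p = 0.0269), with every entinostat array above the DMSO arrays at 24 h and below them at 48 h. Of the 12 refits with 1 array removed, 6 kept this call. The other BNIP3L probe set had an interaction of −0.39 and did not pass. Among all genes 1.92% passed this test, and a single call in the lists read here is near that share.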

How the results depend on the processing

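Counts of family probe sets past the threshold moved by over 1.5 times in few alternatives. At 24 h the count of 10 was 6 with a Benjamini-Yekutieli adjustment and 6 at an adjusted p under 0.01, and for entinostat at 48 h against 24 h the count of 2 was 0 under each of these. The interaction count of 0 was 1 (BAX 208478_s_at, adjusted p = 0.0412) when probe sets with a mean log2 of 7 or more were tested alone, and 1 without DMSO replicate 1 at 24 h (adjusted p = 0.0304). Leaving out 1 array at a time gave between 8 and 11 at 24 h, between 11 and 15 at 48 h, 0 to 1 in the interaction, 0 in DMSO over time, and 1 to 3 under entinostat over time. The log2 fold change of BCL2L1 at 24 h turned to 0.18 (adjusted p = 0.175) with its probe set of the strongest effect, and that of BCL2L11 at 24 h ranged from −0.16 to 0.034 over the refits with 1 array left out, positive only without entinostat replicate 2 at 24 h (adjusted p = 0.887). Neither was past the threshold in any setting. BID, BIK and PMAIP1 passed at both times, and BAX and BAK1 at 48 h, under every alternative run for them. The MCL1 and BAK1 calls at 24 h were lost with the adjustment and threshold above, and that of MCL1 also with the probe set that ends in neither _s_at nor _x_at. All BAX and PMAIP1 probe sets end in _s_at, and those of BCL2 and BIK lie below a mean log2 of 7, so the corresponding alternatives gave no value.

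The arrays share only a replicate number and were treated as unpaired. Deviations of same-numbered arrays correlated between −0.06 and 0.20, those of differently numbered arrays between −0.21 and 0.07. These ranges overlap but lie higher for the same number, so they do not show that a shared replicate effect is absent. A replicate block was therefore run as an alternative. With the replicate block, 11 family probe sets passed at 24 h, 15 at 48 h, 0 in the interaction, 0 in DMSO over time and 2 under entinostat over time. All 10 and 12 of the calls without the block were kept, and those gained were MCL1 200796_s_at at both times and BCL2L11 1558143_a_at and 222343_at at 48 h.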
